A study of Mus musculus with 2 samples.

Results

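The 10 genes described here are the 3 CREB-regulated transcription coactivators, Crtc1, Crtc2 and Crtc3, and 7 genes known to be induced by cyclic AMP, namely Crem, Nr4a1, Nr4a2, Nr4a3, Ppargc1a, Pde10a and Pde4d. They were chosen by symbol among the 31053 genes that both matrices list, and each symbol was found. Mouse lung was dissociated into total lung cells, and droplet single-cell RNA sequencing (10x Chromium 3' v3) counted transcripts per gene and cell by their unique molecular identifiers (UMIs). There was 1 library per genotype, pooled from 3 mice aged 5 weeks. Mice of the first genotype, Nkx2.1 Cre;Lkb1f/f, carried floxed alleles of Lkb1 (gene symbol Stk11) and a Cre recombinase under Nkx2.1, a transcription factor gene of lung epithelial progenitors, and their library is called the Cre library. Mice of the second genotype, Lkb1f/f, carried the same floxed alleles without Cre, and theirs is called the control library. No treatment was given in the labels.

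LKB1 is a kinase that activates AMPK and its relatives, among them the salt-inducible kinases SIK1, SIK2 and SIK3. Active SIKs phosphorylate the CRTC proteins, which are then held outside the nucleus. When cyclic AMP rises, protein kinase A phosphorylates CREB and restrains the SIKs, and dephosphorylated CRTC enters the nucleus, binds CREB and raises transcription of cyclic AMP-induced genes. CRTC activity is therefore set largely by phosphorylation and location of the protein, which RNA counts do not measure.

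Since each genotype was 1 pooled library, no spread between replicates could be had and nothing was tested, and genotype cannot be told apart from mouse, pool or library effects. The Cre library held 14675 cells after filtering, with 74497805 UMIs and a median of 3250 UMIs per cell. The control library held 12455 cells, with 69097618 UMIs and a median of 3611. Cells were assigned to classes from sets of marker genes, and a class name ends in -like for that reason. UMIs were summed per class and library and are given as CPM, the share of that sum scaled to 1e6, for 26 classes with at least 50 cells in each library. Folds are Cre over control, divided by the median fold of all genes of the class, and each is followed by its exact 95% interval, which reflects counting error alone. That all-gene median was 0.15 on the log2 scale in AT2-like, 0.09 in AT1-like, 0.38 in club-like and 0.15 in ciliated-like cells. The median was taken after adding 5 CPM to each value, whereas the ratio that it divides had nothing added. A fold and its divisor are therefore on unlike scales. Genes with 20 or more UMIs in a class, both libraries added, are called measured there. It was called higher or lower if its log2 ratio, taken after adding 5 CPM to each value, lay at least 2-fold from the all-gene median. Of all barcodes, 68 occurred in both libraries, and 59 of them passed the filter in both.

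AT2-like and club-like cells carried their defining markers in both libraries. All 8 AT2 markers were measured in AT2-like cells, which make the surfactant of the alveolus, with a summed level of 204460 CPM in the Cre and 274907 CPM in the control library. In club-like cells, which secrete the airway lining proteins, the 8 club markers summed to 464734 CPM in the Cre and 636279 CPM in the control library, so the other genes shared a larger remainder in the Cre library. Stk11, the targeted gene, stood at 28.3 CPM in the Cre and 48.6 CPM in the control library in AT2-like cells (0.526-fold, 0.463 to 0.597). In AT1-like cells, which form the thin gas-exchange surface, it stood at 45.5 CPM in the Cre and 76.5 CPM in the control library (0.560-fold, 0.349 to 0.909). In club-like cells it had 16.2 CPM in the Cre and 14.7 CPM in the control library (0.846-fold, 0.623 to 1.15), and in ciliated-like cells 63.8 CPM in the Cre and 69.7 CPM in the control library (0.827-fold, 0.6004 to 1.14). The kit counts transcript 3' ends, and the labels do not say which part of Stk11 is floxed, so a deleted allele may still give tags.

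The stretch of DNA just upstream of an annotated start of several members carries copies of the core of the cyclic AMP response element, the site that CREB binds. RefSeq promoter windows (GRCm38.p6), each placed at an annotated start, were present for 8 of the 10 members. The 250 bases before that start were searched for TGACG and its reverse complement CGTCA, which may overlap each other, and for the full palindrome TGACGTCA. The following 4 windows are those in which the core occurred. They are printed 5' to 3' on the strand of the gene, with each core in capitals.
Nr4a1 (chr15:101266596-101266845, plus strand): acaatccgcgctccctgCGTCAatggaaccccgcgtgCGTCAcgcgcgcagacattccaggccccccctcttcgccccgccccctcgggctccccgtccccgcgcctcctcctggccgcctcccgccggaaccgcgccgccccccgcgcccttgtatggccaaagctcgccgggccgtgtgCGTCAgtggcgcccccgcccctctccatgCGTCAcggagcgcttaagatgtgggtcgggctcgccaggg
Nr4a2 (chr2:57124004-57124253, minus strand): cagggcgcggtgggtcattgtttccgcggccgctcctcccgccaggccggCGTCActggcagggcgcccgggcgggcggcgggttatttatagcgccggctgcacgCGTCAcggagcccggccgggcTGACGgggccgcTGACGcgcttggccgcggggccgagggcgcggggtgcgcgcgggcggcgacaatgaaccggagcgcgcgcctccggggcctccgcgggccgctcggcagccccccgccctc
Nr4a3 (chr4:48045055-48045304, plus strand): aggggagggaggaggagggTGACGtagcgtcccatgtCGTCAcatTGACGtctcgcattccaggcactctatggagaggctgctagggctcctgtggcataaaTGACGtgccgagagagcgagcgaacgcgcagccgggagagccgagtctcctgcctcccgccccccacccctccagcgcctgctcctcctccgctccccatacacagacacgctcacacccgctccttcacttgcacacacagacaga
Ppargc1a (chr5:51567726-51567975, minus strand): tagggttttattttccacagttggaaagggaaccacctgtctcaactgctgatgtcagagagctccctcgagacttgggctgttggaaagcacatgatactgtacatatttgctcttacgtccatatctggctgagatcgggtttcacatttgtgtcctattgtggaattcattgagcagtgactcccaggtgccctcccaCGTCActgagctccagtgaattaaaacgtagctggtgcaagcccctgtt
Each of the 3 Nr4a windows held 4 cores. In Nr4a1 they began 233, 213, 69 and 40 bases before the start, in Nr4a2 200, 144, 123 and 111 bases before it, and in Nr4a3 231, 213, 205 and 147 bases before it. The Ppargc1a window held 1 core, 49 bases before the start. No core was found in the windows of Crtc1, Crtc3, Pde4d or in either of the windows of Pde10a, and none of the member windows held TGACGTCA. Over all 32851 RefSeq mouse promoter windows of the same length, 17.8% held at least 1 core, 3.9% at least 2, 0.688% at least 3 and 1.55% the full palindrome. A match describes these letters only and says nothing of binding, and absence of a match refers only to this window. Crtc2 and Crem had no window in the table used.

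In the GENCODE M21 annotation of GRCm38, all 10 members are protein-coding genes. The orphan nuclear receptor genes lie at chr15:101254269-101274795 on the plus strand (Nr4a1), chr2:57106830-57124003 on the minus strand (Nr4a2) and chr4:48045153-48086447 on the plus strand (Nr4a3). Ppargc1a lies at chr5:51454250-51567726 on the minus strand, Pde10a at chr17:8525372-8986648 on the plus strand and Pde4d at chr13:108449948-109953461 on the plus strand. The coactivator genes lie at chr8:70382355-70439579 on the minus strand (Crtc1), chr3:90254163-90264125 on the plus strand (Crtc2) and chr7:80586627-80688877 on the minus strand (Crtc3). The promoter windows of Nr4a1, Pde10a and Pde4d lie inside these loci, and that of Nr4a3 lies partly inside its locus. Those of Crtc1 and Ppargc1a overlap the edge of their loci by a few bases at most. The start used for a window is therefore not always the start of the locus. Pde10a overlaps 1 other protein-coding gene, Gm17087, on the opposite strand, and the other members overlap none. Whether counting used strand is not given in the sources used here.

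In AT2-like cells, 6 of the 10 members were called higher in the Cre library and none lower, where 1.37% of 12428 measured genes were called higher and 0.861% lower. The 6 were Crem, Nr4a1, Nr4a2, Nr4a3, Ppargc1a and Pde10a. The 3 coactivators and Pde4d stayed within 2-fold. The class held 1676 Cre cells and 1413 control cells, with medians of 7972.5 UMIs in Cre and 10263 UMIs in control cells. The median log2 ratio of the 10 members, less that of all genes, was 1.04. Pde10a, which is in the 6 and in this median, passed the minimum for a measured gene only through the Cre library. The members were chosen with earlier results of these data known. The count of 6 beside all measured genes, like the member counts in other classes, is therefore a description only.

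**Figure D1:**
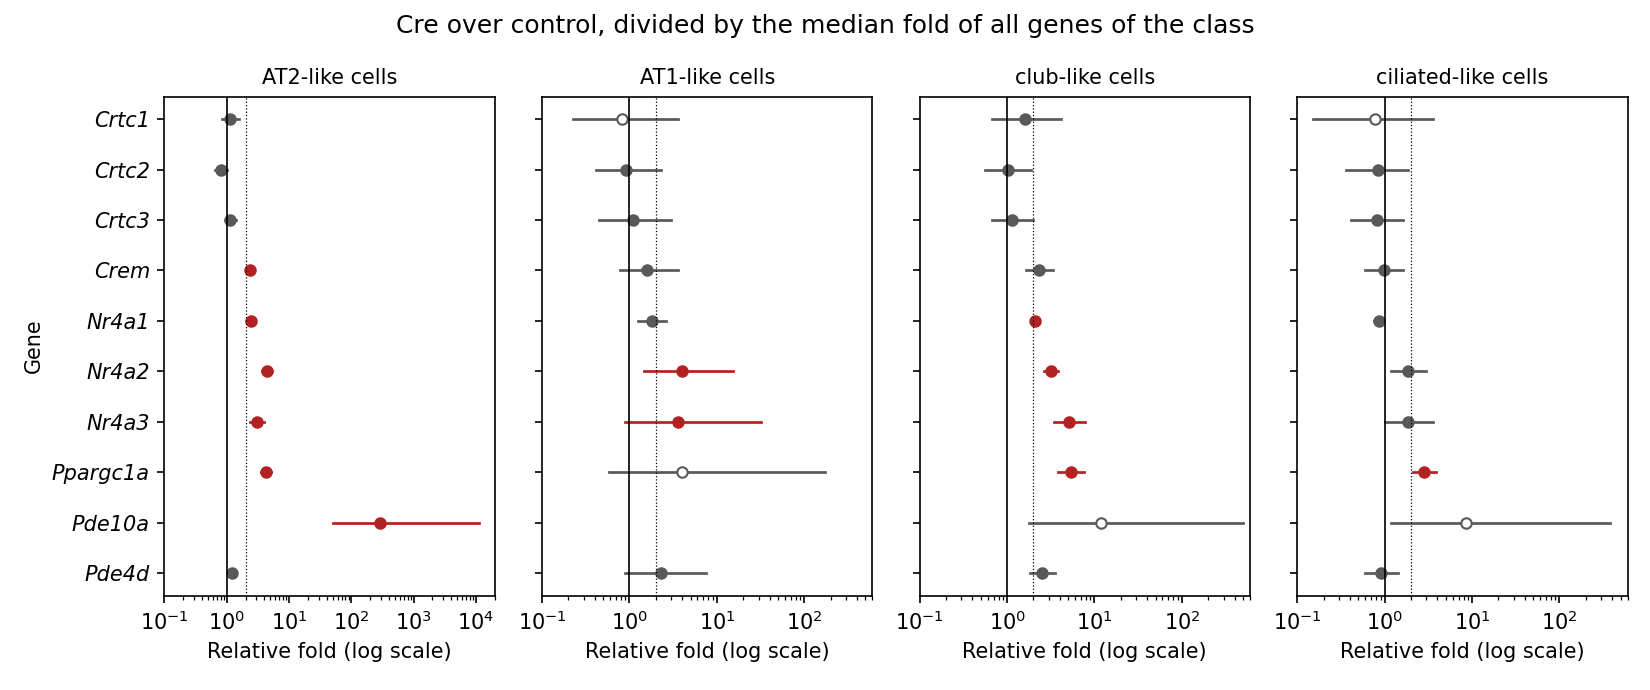
Fold of Cre over control, divided by the all-gene median fold of the class (x axis, log scale), for the 10 genes (rows) in 4 epithelial classes (panels). The all-gene median was taken with 5 CPM added. Lines are exact 95% intervals for counting error, red marks genes called higher, open circles mark genes with under 20 UMIs, the dotted line is 2-fold, and a gene with 0 UMIs in a library has no point (Pde10a in AT1-like cells). In AT2-like cells 6 genes lie to the right of the dotted line, while the 3 Crtc genes lie to its left in all 4 panels.

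The coactivators differed little in level in AT2-like cells. Crtc1, the member best known from neurons, had 6.69 CPM in the Cre and 5.29 CPM in the control library (1.14-fold, 0.827 to 1.57). Crtc2, known in liver for its part in the fasting response, had 11.6 CPM in the Cre and 12.7 CPM in the control library (0.819-fold, 0.656 to 1.02). Crtc3, known in adipose tissue, had 15.2 CPM in the Cre and 12.0 CPM in the control library (1.14-fold, 0.926 to 1.41). All 3 intervals include 1 and none reaches 2-fold.

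Crem encodes CREM, a relative of CREB, and from an internal promoter also the short repressor ICER, which cyclic AMP induces. The 3' tags do not tell these products apart. In AT2-like cells Crem had 736 UMIs (53.5 CPM) in the Cre and 282 UMIs (20.7 CPM) in the control library, a fold of 2.32 (2.02 to 2.68). The fold lay just past the limit: with a pseudocount of 20 CPM the log2 ratio of Crem was 0.78, and with called doublets kept it was 0.98.

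The NR4A proteins are orphan nuclear receptors whose genes are immediate early genes, switched on within minutes by cyclic AMP and by many other stimuli, tissue dissociation included. In AT2-like cells Nr4a1 had 217 CPM in the Cre and 79.8 CPM in the control library (2.45-fold, 2.29 to 2.63). Nr4a2 had 53.0 CPM in the Cre and 10.9 CPM in the control library (4.39-fold, 3.67 to 5.27). Nr4a3 had 20.3 CPM in the Cre and 6.03 CPM in the control library (3.03-fold, 2.36 to 3.93). The fold was thus higher for Nr4a2 than for Nr4a1, with intervals that do not overlap. The call for Nr4a3 was lost with a pseudocount of 20 CPM (log2 ratio 0.56), with called doublets kept (0.99), with the stricter gate (0.996) and with each cell thinned to 1000 UMIs (0.67).

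Ppargc1a encodes PGC-1α, a coactivator of mitochondrial biogenesis and a known CREB target in liver and muscle. It had 665 UMIs (48.3 CPM) in Cre AT2-like cells and 141 UMIs (10.4 CPM) in control AT2-like cells, a fold of 4.20 (3.498 to 5.07). The 4.20-fold difference of Ppargc1a was close to that of Nr4a2, and their intervals overlap.

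The phosphodiesterases hydrolyse cyclic nucleotides and so end the signal, and the members hold 2 of them. Pde10a, which hydrolyses both cyclic AMP and cyclic GMP and is best known from the striatum, had 319 UMIs (23.2 CPM) in Cre AT2-like cells and 1 UMI (0.0735 CPM) in control AT2-like cells. The ratio was 284 (50.6 to 11258), and its interval is wide because the control count was 1. Pde10a passed the minimum of 20 UMIs only through the Cre library. Pde4d, a cyclic AMP-specific enzyme with many isoforms, had 49.7 CPM in the Cre and 37.1 CPM in the control library (1.21-fold, 1.08 to 1.36).

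Shares of cells with a UMI followed the levels. With each AT2-like cell thinned to 1000 UMIs, which left out 56 Cre and 82 control cells, Nr4a1 was seen in 16.9% of Cre and 6.54% of control cells. Ppargc1a was seen in 4.44% of Cre and 0.826% of control cells, Crem in 5.19% of Cre and 1.65% of control cells, and Nr4a2 in 3.95% of Cre and 1.13% of control cells. Pde10a was seen in 37 of 1620 Cre cells (2.28%) and in 0 of 1331 control cells, a count that limits the share of cells with a UMI at this depth to at most 0.225% and not the share of cells that express the gene. Without thinning, Pde10a had a UMI in 14.9% of Cre and 0.0708% of control AT2-like cells. Free RNA in droplets gives UMIs to cells that do not express a gene, so B cell-like cells were taken beside them, with medians of 2010.5 UMIs in Cre and 3052 UMIs in control cells. There, thinned in the same way, Pde10a was seen in 0 of 1354 Cre and 0 of 1667 control cells, Ppargc1a in 0.148% of Cre and 0.060% of control cells, and the AT2 gene Sftpc in 48.5% of Cre and 45.5% of control cells. Nr4a2 was seen in 1.26% of Cre and 0.66% of control B cell-like cells. B cells express Nr4a1 and Crem themselves, so no background can be read for these, nor for the shares of cells with any member.

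At least 1 of the 10 members was seen in 34.5% of thinned Cre AT2-like cells and 15.1% of thinned control AT2-like cells. At least 2 members were seen in the same cell in 7.22% of Cre and 0.977% of control cells.

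Sox9, a transcription factor gene of the distal lung progenitor, had a UMI in 783 of the Cre AT2-like cells and none in 893, and the members were compared between these cells. Ppargc1a stood at 61.4 CPM in cells with a Sox9 UMI and 34.3 CPM in cells without one, a ratio of 1.79 (1.52 to 2.11). Pde10a stood at 27.3 CPM with and 18.7 CPM without a Sox9 UMI (1.46, 1.16 to 1.84), and Nr4a2 at 61.4 CPM with and 43.9 CPM without one (1.40, 1.202 to 1.63). Nr4a1 was at 217 CPM in both (0.999, 0.929 to 1.07), and the intervals of the other 6 members included 1. These ratios, and those of the next sentence, are of CPM with no division by an all-gene median. Cre cells without a Sox9 UMI still had 3.30 times (2.67 to 4.11) the Ppargc1a and 2.72 times (2.52 to 2.95) the Nr4a1 level of all control AT2-like cells. The groups differed in depth, with medians of 8477 UMIs in cells with and 7548 UMIs in cells without a Sox9 UMI, so some cells without one may have gone undetected.

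**Figure D2:**
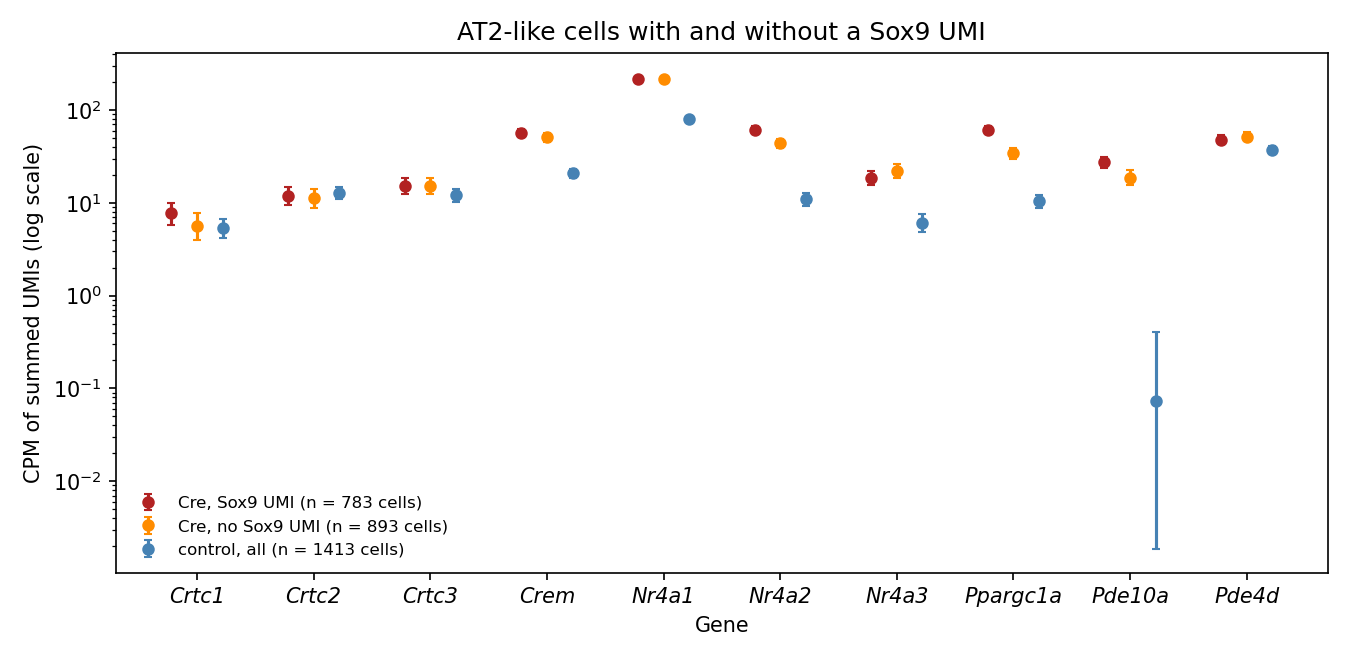
Level (y axis, CPM, log scale) of the 10 genes in AT2-like cells of the Cre library with a Sox9 UMI (red) and without one (orange), and of the control library (blue); bars are exact 95% Poisson intervals. Both Cre groups lie above the control for Crem, the 3 Nr4a genes, Ppargc1a and Pde10a, and the red point lies above the orange one for Ppargc1a, Pde10a and Nr4a2.

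The machinery upstream of CREB and CRTC did not differ by 2-fold in AT2-like cells. Of 27 listed genes, among them the kinase LKB1 and its partners, the SIKs, protein kinase A, calcineurin, adenylyl cyclases and CREB itself, 25 were measured and none was called higher or lower. Their median log2 ratio, less that of all genes, was 0.06. Sik1, itself a CREB target, had 44.0 CPM in the Cre and 24.2 CPM in the control library (1.64-fold, 1.43 to 1.88). Sik2 stood at 1.37-fold (0.909 to 2.08) and Sik3 at 1.19-fold (1.04 to 1.37). The lowest besides Stk11 among the genes with at least 50 UMIs was Adcy7, an adenylyl cyclase, with 55.5 CPM in the Cre and 91.5 CPM in the control library (0.547-fold, 0.499 to 0.599).

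Other genes known to be induced through CREB were in part higher in AT2-like cells. Of 28 listed, 21 were measured, and 4 were called higher and none lower, beside 1.37% and 0.861% of all measured genes. Their median log2 ratio, less that of all genes, was 0.52. This list and the other gene lists were chosen with earlier results of these data known, so their counts are a description only. Il6, an inflammatory cytokine, had 49.7 CPM in the Cre and 3.23 CPM in the control library (13.8-fold, 10.2 to 19.2). Areg, a ligand of the EGF receptor, had 454 CPM in the Cre and 91.7 CPM in the control library (4.46-fold, 4.20 to 4.75). Nfil3, a bZIP transcription factor gene, had 41.8 CPM in the Cre and 11.5 CPM in the control library (3.28-fold, 2.75 to 3.94), and Ptgs2, the inducible prostaglandin synthase gene, 146 CPM in the Cre and 56.2 CPM in the control library (2.34-fold, 2.15 to 2.55). Gem (1.80-fold) and Per1 (1.76-fold) stayed within 2-fold.

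Among 14 other phosphodiesterase genes, 11 were measured and 2 were called higher in Cre AT2-like cells, beside 1.37% of all measured genes. Pde4b, like Pde4d specific for cyclic AMP, had 34.2 CPM in the Cre and 6.18 CPM in the control library (4.99-fold, 3.95 to 6.38). Pde1c, a calmodulin-dependent enzyme, had 121 UMIs in the Cre and 1 UMI in the control library, a ratio of 108 (18.98 to 4292), and passed the minimum only through the Cre library. Pde7b had 28.8 CPM in the Cre and 12.4 CPM in the control library (2.09-fold, 1.74 to 2.51) and was not called on the scale with 5 CPM added.

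The 20 listed genes known to be induced by tissue dissociation summed to 8408 CPM in Cre and 5461 CPM in control AT2-like cells, with a median log2 ratio of 0.52 less that of all genes. Of these, 2 were called higher, the heat shock genes Hspa1b (4.29-fold, 3.81 to 4.84) and Hspa1a (2.96-fold, 2.67 to 3.27), while Egr1 stood at 1.57-fold and Junb at 1.59-fold. Their part in the Nr4a1, Nr4a2, Nr4a3 and Crem values was not tested. Among markers of other cells, the 8 alveolar macrophage markers summed to 159 CPM in Cre and 16.5 CPM in control AT2-like cells, with 3 measured, 1 called higher and none at 0. The part of these markers was not tested. In the Cre library, alveolar macrophage-like cells themselves had 193 CPM of Nr4a1, 15.6 CPM of Nr4a3, 12.1 CPM of Crem, 5.14 CPM of Nr4a2, 0.694 CPM of Pde10a and 0.278 CPM of Ppargc1a. The 8 alveolar fibroblast markers, of a class in which Nr4a2 and Nr4a3 were high, summed to 383 CPM in Cre and 266 CPM in control AT2-like cells, with 7 measured and none called.

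In club-like cells, 9 of the 10 members were measured and 4 were called higher, where 1.6% of 10225 measured genes were called higher and 0.831% lower. Ppargc1a had 45.5 CPM in the Cre and 6.54 CPM in the control library (5.34-fold, 3.82 to 7.63). Nr4a3 had 32.9 CPM in the Cre and 4.94 CPM in the control library (5.11-fold, 3.47 to 7.75), and Nr4a2 had 99.4 CPM in the Cre and 24.1 CPM in the control library (3.17-fold, 2.64 to 3.82). Nr4a1 had 381 CPM in the Cre and 142 CPM in the control library (2.06-fold, 1.90 to 2.23). The 4 genes are those of the receptor family and PGC-1α.

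Crem had 21.6 CPM in Cre and 7.18 CPM in control club-like cells (2.31-fold, 1.62 to 3.34), and Pde4d 27.2 CPM in the Cre and 8.29 CPM in the control library (2.52-fold, 1.83 to 3.53). Neither was called on the scale with 5 CPM added. Pde10a, with 13 UMIs in the Cre and 1 UMI in the control library, was below the minimum. The coactivators stood at 1.61-fold (Crtc1, 0.669 to 4.13), 1.02-fold (Crtc2, 0.561 to 1.88) and 1.15-fold (Crtc3, 0.666 to 1.999). The call for Nr4a1 was lost when the 20 most abundant genes were left out of the total (log2 ratio 0.82), with a pseudocount of 1 CPM (0.87), with at least 100 UMIs required (0.91) and with called doublets kept (0.98), and that for Nr4a3 with a pseudocount of 20 CPM (0.90). The dissociation genes summed to 10210 CPM in Cre and 6839 CPM in control club-like cells, with 1 of 20 called higher. The 8 alveolar macrophage markers summed to 351 CPM in Cre and 23.9 CPM in control club-like cells (3 measured, 1 called higher). The part of these genes was not tested. Among the other CREB-induced genes 5 of 22 measured were called higher, with Areg at 112 CPM in the Cre and 11.2 CPM in the control library (7.72-fold, 6.02 to 10.03).

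In AT1-like cells, 7 of 10 members were measured and 2 called higher, where 4.87% of 7489 measured genes were called higher and 2.68% lower. The class had 345 Cre cells and 136 control cells at a median of about 1000 UMIs (1068 in Cre and 1004.5 in control cells), so counts were small. Nr4a2 had 44 UMIs (41.7 CPM) in the Cre and 4 UMIs (9.87 CPM) in the control library (3.98-fold, 1.45 to 15.2). Nr4a3 had 20 UMIs in the Cre and 2 UMIs in the control library (3.61-fold, 0.878 to 31.9), an interval that includes 1. Nr4a2 and Nr4a3 passed the minimum for a measured gene only through the Cre library. Nr4a1 had 179 CPM in the Cre and 93.8 CPM in the control library (1.80-fold, 1.26 to 2.62). Pde10a had 16 UMIs in the Cre library and 0 in the control library, and Ppargc1a 11 UMIs in the Cre and 1 in the control library. Both were below the minimum. Of the other CREB-induced genes 20 were measured in AT1-like cells, 2 called higher and 0 lower. The 8 AT2 markers summed to 15917 CPM in Cre and 10531 CPM in control AT1-like cells, with 2 of 8 called higher. The 6 adventitial fibroblast markers summed to 159 CPM in Cre and 32.1 CPM in control cells (4 measured, 3 called higher). The 6 neutrophil markers summed to 296 CPM in Cre and 2334 CPM in control cells (4 measured, 2 called lower). The 8 alveolar macrophage markers summed to 252 CPM in Cre and 32.1 CPM in control cells (1 measured and called higher). The part of these markers in the AT1-like values was not tested.

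In ciliated-like cells, the cells whose cilia move mucus, 8 members were measured and 1, Ppargc1a, was called higher, where 1.87% of 8929 measured genes were called higher and 2.11% lower. Ppargc1a had 147.8 CPM in the Cre and 47.5 CPM in the control library (2.81-fold, 2.08 to 3.83). Nr4a1 had 421 CPM in the Cre and 446 CPM in the control library (0.852-fold, 0.754 to 0.963), an interval apart from that in AT2-like cells. Crem had 29.4 CPM in the Cre and 26.9 CPM in the control library (0.986-fold, 0.597 to 1.63). Nr4a2 stood at 1.85-fold (1.18 to 2.96) and Nr4a3 at 1.86-fold (1.01 to 3.56). The dissociation genes ran the other way here, with 18447 CPM in Cre and 23255 CPM in control ciliated-like cells and 5 of 20 called lower. So did the 28 other CREB-induced genes, with 7706 CPM in Cre and 12634 CPM in control cells (20 measured, 1 called higher and 3 lower). The 8 alveolar macrophage markers summed to 1070 CPM in Cre and 113 CPM in control cells of this class (3 measured, all 3 called higher, with Marco and Cidec at 0 in the control library) and the 8 AT2 markers to 3176 CPM in Cre and 6521 CPM in control cells (8 measured, 3 called lower). The 6 Spp1 Arg1 macrophage markers summed to 138 CPM in Cre and 13.5 CPM in control cells (3 measured, all 3 called higher, with Gpnmb and Ccl24 at 0 in the control library). The 8 club markers summed to 155509 CPM in Cre and 219486 CPM in control ciliated-like cells (7 measured, 3 called higher). The 6 neutrophil markers summed to 42.8 CPM in Cre and 540 CPM in control cells (3 measured, all 3 called lower). The 7 interstitial macrophage markers summed to 30.2 CPM in Cre and 158 CPM in control cells (3 measured, all 3 called lower). At 0 in the Cre library were Cxcr2, Ms4a7, Folr2 and Cd163. What part these genes had in the ciliated-like values was not tested.

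Across the 26 classes each cyclic AMP-induced gene had its own distribution, and the classes with the highest level were in part shared by the libraries. Nr4a1 was highest in nonclassical monocyte-like cells, with 1756 CPM in the Cre and 2032 CPM in the control library, apart from the next class in both libraries. In the Cre library alveolar fibroblast-like (1310 CPM) and ILC2-like cells (1265 CPM) followed, with intervals that overlap, and in the control library classical monocyte-like (1001 CPM), adventitial fibroblast-like (965 CPM) and ILC2-like cells (955 CPM), which also overlap in that order. Crem was highest in ILC2-like cells, the group 2 innate lymphoid cells, with 447 CPM in the Cre and 362 CPM in the control library, then in NK-like cells (191 CPM in the Cre and 222 CPM in the control library) and T cell-like cells (148 CPM in the Cre and 152 CPM in the control library). Nr4a3 was also highest in ILC2-like cells, with 1105 CPM in the Cre and 533 CPM in the control library (1.79-fold, 1.60 to 2.004). Nr4a2 was highest in alveolar fibroblast-like cells of the Cre library (700 CPM) and in ILC2-like cells of the control library (399 CPM).

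Ppargc1a was highest in the epithelium. Ciliated-like cells had the highest level in both libraries, and the measured classes were AT2-like, club-like, ciliated-like and erythroid-like cells only. In T cell-like, ILC2-like, neutrophil-like, nonclassical monocyte-like and venous-like cells it had 0 UMIs in both libraries. Pericyte-like cells had 9 UMIs in the Cre library and 0 in the control library, below the minimum. Pde10a in the control library was highest in lymphatic-like cells (26.6 CPM) and smooth muscle-like cells (14.9 CPM), whose intervals overlap. In the Cre library smooth muscle-like (28.0 CPM), AT2-like (23.2 CPM) and lymphatic-like cells (23.2 CPM) came first, also with overlapping intervals. Pde4d was highest in T cell-like cells, with 70.8 CPM in the Cre and 71.9 CPM in the control library.

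Each coactivator was spread over many classes. Crtc3 reached 78.6 CPM in ILC2-like cells of the Cre library and 82.8 CPM in pericyte-like cells of the control library, and Crtc2 reached 46.3 CPM in lymphatic-like cells of the Cre library and 45.6 CPM in venous-like cells of the control library. Crtc1 was highest in plasmacytoid dendritic-like cells, on 7 UMIs (28.7 CPM) in the Cre and 8 UMIs (19.4 CPM) in the control library. For all 3 the leading classes overlap their neighbours in the order. In AT2-like cells Crtc3 (15.2 CPM in the Cre and 12.0 CPM in the control library) and Crtc2 (11.6 CPM in the Cre and 12.7 CPM in the control library) lay well below those levels.

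**Figure D3:**
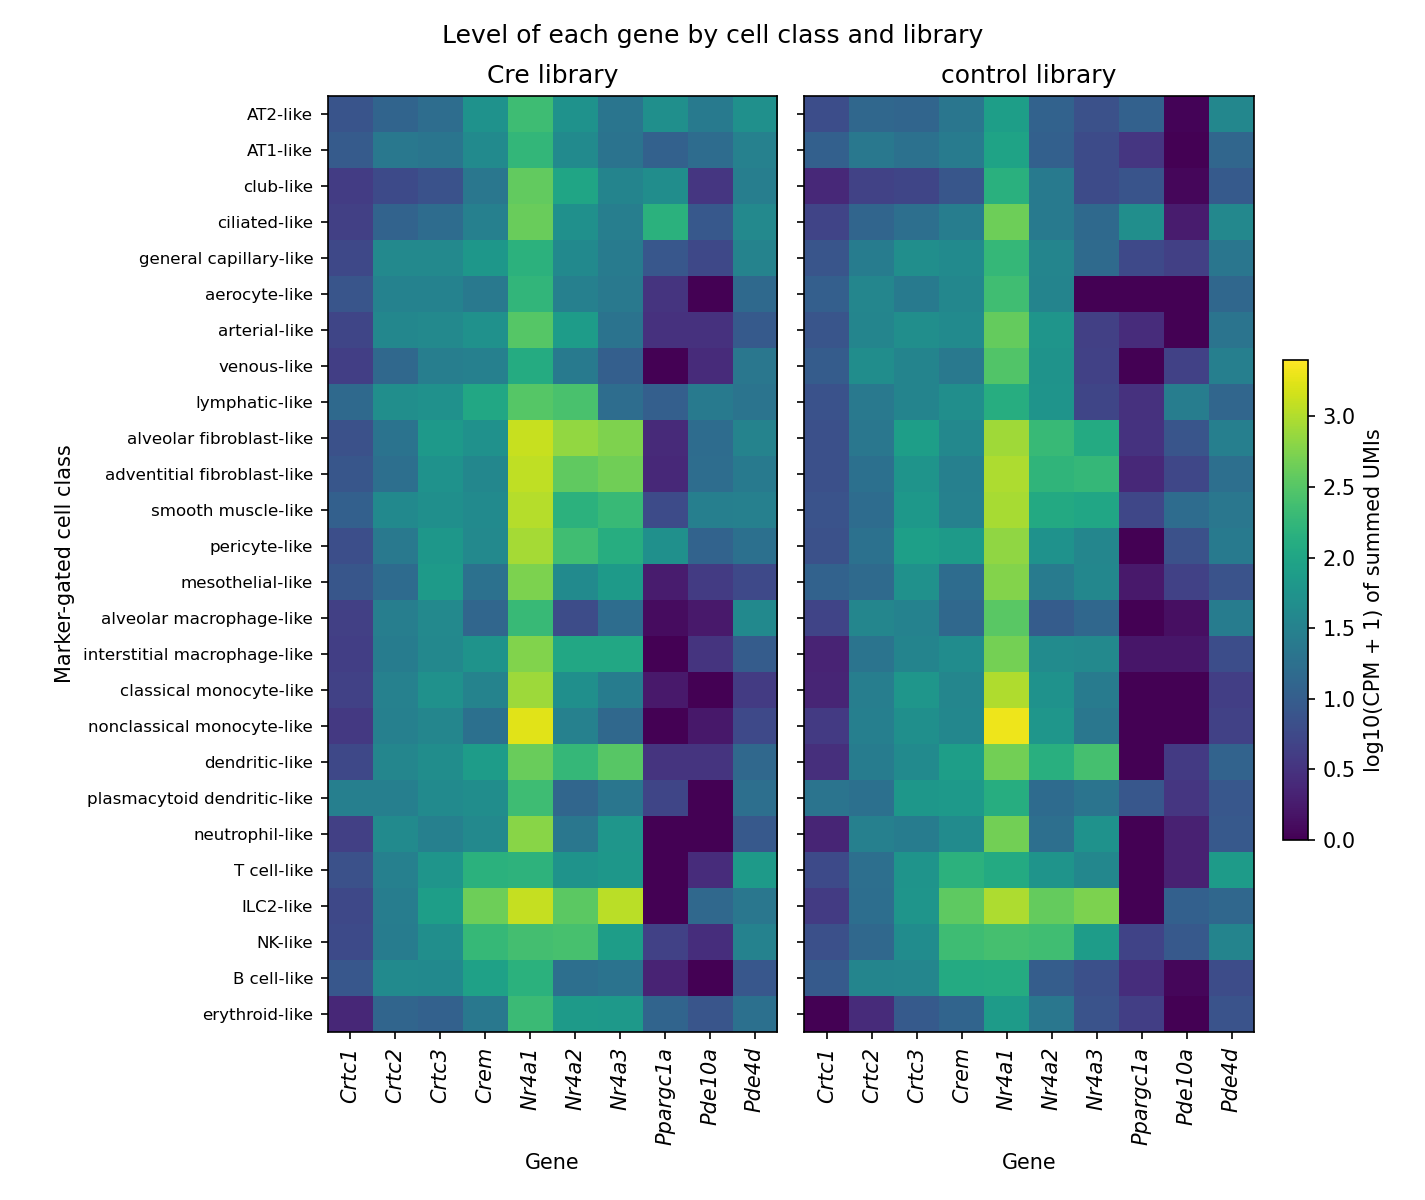
Level of each gene (columns) in 26 cell classes (rows) in the Cre library (left) and the control library (right), as log10 of CPM plus 1 (colour). Nr4a1 is brightest in nonclassical monocyte-like cells of both libraries, Ppargc1a is dark outside the epithelium apart from a few classes with low counts, and Pde10a in AT2-like cells is visible in the Cre library only.

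The Nr4a genes were called in classes outside the epithelium too, that is, outside the lineage in which Nkx2.1 is known to act in the lung. Nr4a2 was called higher in 8 of 25 measured classes and lower in 2, Nr4a3 higher in 8 of 21 and lower in none, and Nr4a1 higher in 3 of 26 and lower in 1. Some of these calls passed the minimum of 20 UMIs only through 1 library, as given for each class. In alveolar fibroblast-like cells, where 1.65% of measured genes were called higher and 1.23% lower, Nr4a2 had 700 CPM in the Cre and 195 CPM in the control library (3.497-fold, 3.14 to 3.91). Nr4a3 had 554 CPM in the Cre and 118 CPM in the control library (4.57-fold, 3.98 to 5.27), and Nr4a1 had 1310 CPM in the Cre and 815 CPM in the control library (1.57-fold, 1.48 to 1.66). Median depth in this class was 3920 UMIs in Cre and 2047 UMIs in control cells. Within the larger of its clusters, with 640 Cre and 325 control cells, Nr4a2 stood at 3.29-fold (2.94 to 3.69) and Nr4a3 at 4.26-fold (3.69 to 4.94), with Nr4a1 at 1.48-fold (1.39 to 1.57). Within the other, with 218 Cre and 217 control cells, Nr4a3 stood at 3.49-fold (1.95 to 6.64) and Nr4a1 at 2.70-fold (2.14 to 3.42), both past 2-fold, and Nr4a2 at 1.90-fold (1.17 to 3.17), short of it. Crtc3, within 2-fold in the class as a whole, stood at 0.311-fold (0.0885 to 0.901) in that cluster. The dissociation genes summed to 32018 CPM in Cre and 31458 CPM in control alveolar fibroblast-like cells, with none of 20 called higher and 1 lower. Of the other CREB-induced genes 22 were measured in this class, 6 called higher and 0 lower. The 8 alveolar macrophage markers summed to 175 CPM in Cre and 17.5 CPM in control cells of this class (2 measured, 1 called higher), and the 6 neutrophil markers to 321 CPM in Cre and 1159 CPM in control cells (5 measured, 4 called lower). Their part was not tested.

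Adventitial fibroblast-like cells had Nr4a2 at 370 CPM in the Cre and 166 CPM in the control library (2.06-fold, 1.83 to 2.33), Nr4a3 at 459 CPM in the Cre and 183 CPM in the control library (2.31-fold, 2.06 to 2.59) and Pde10a at 15.4 CPM in the Cre and 4.31 CPM in the control library (3.30-fold, 1.61 to 7.61). All 3 were called higher, where 0.751% of measured genes were called higher and 0.712% lower. Pde10a had 52 UMIs in the Cre and 9 UMIs in the control library, so it passed the minimum only through the Cre library. Within the one cluster of this class with enough cells, Nr4a2 stood at 1.55-fold (1.32 to 1.82) and Pde10a at a log2 ratio of 0.97 with 5 CPM added, both short of the limit. Nr4a2 was also short of it with clusters in place of gates (0.67), with the stricter cell filter (0.97) and with at least 100 UMIs required (0.99), and Pde10a with clusters in place of gates (0.91), with the stricter cell filter (0.99) and with a pseudocount of 20 CPM (0.47). The 6 neutrophil markers summed to 255 CPM in Cre and 859 CPM in control cells of this class (5 measured, 2 called lower), and their part was not tested. Interstitial macrophage-like cells had Nr4a2 at 109 CPM in the Cre and 43.1 CPM in the control library (2.23-fold, 1.69 to 2.95) and Nr4a3 at 107 CPM in the Cre and 38.4 CPM in the control library (2.45-fold, 1.84 to 3.30), where 1.2% of measured genes were called higher and 1.59% lower. In this class the 8 alveolar macrophage markers summed to 846 CPM in Cre and 155 CPM in control cells (4 measured, 3 called higher and 1 lower), and the 6 Spp1 Arg1 macrophage markers to 994 CPM in Cre and 626 CPM in control cells (6 measured, 3 called higher and 1 lower). The 6 neutrophil markers summed to 374 CPM in Cre and 2120 CPM in control cells (6 measured, 5 called lower) and the 8 club markers to 1398 CPM in Cre and 13506 CPM in control cells (5 measured, 3 called lower). Krt79 was at 0 in the Cre and Bpifb1 at 0 in the control library, and the part of these sets was not tested. With a pseudocount of 20 CPM both calls were lost (log2 ratio 0.91 for Nr4a2 and 0.996 for Nr4a3), that of Nr4a2 also with clusters in place of gates (0.94) and that of Nr4a3 with thinning to 1000 UMIs (0.87). In pericyte-like cells both genes were called higher, in a class where 12.0% of measured genes were called higher and 7.63% lower. There Nr4a2 had 40 UMIs in the Cre and 9 UMIs in the control library, and Nr4a3 had 23 UMIs in the Cre and 6 UMIs in the control library. Nr4a3 was called higher in erythroid-like cells, where 5.89% of measured genes were called higher and 5.83% lower and the all-gene median was 0.82 on the log2 scale. It had 151 UMIs in the Cre and 4 UMIs in the control library there. The pericyte-like and erythroid-like calls passed the minimum only through the Cre library.

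In lymphatic-like cells, where 4.09% of measured genes were called higher and 2.78% lower, Crem (2.24-fold, 1.36 to 3.82), Nr4a1 (2.38-fold, 1.77 to 3.24) and Nr4a2 (4.44-fold, 2.94 to 6.94) were higher. Nr4a2 had 261 CPM in the Cre and 57.2 CPM in the control library there. The 8 alveolar macrophage markers summed to 689 CPM in Cre and 269.9 CPM in control lymphatic-like cells, with 2 measured and 1 called higher. The 6 B cell markers summed to 178 CPM in Cre and 622 CPM in control cells of this class (4 measured, all 4 called lower), and the 8 AT2 markers to 4088 CPM in Cre and 2860 CPM in control cells (7 measured, 4 called higher). The 6 Spp1 Arg1 macrophage markers summed to 168 CPM in Cre and 16.4 CPM in control cells (2 measured, both called higher, with Arg1, Mmp12 and Trem2 at 0 in the control library), and the part of all these markers was not tested. The Crem call was lost with called doublets kept (log2 ratio 0.94) and with a pseudocount of 20 CPM (0.91). Crtc2 was within 2-fold in the class as a whole. Within the one cluster of this class with enough cells it stood at 2.76-fold (1.14 to 7.65, log2 ratio 1.23), past the limit.

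Lower calls occurred in 2 classes. In venous-like cells, where 2.48% of measured genes were called higher and 2.44% lower, Nr4a1 had 122 CPM in the Cre and 294 CPM in the control library (0.391-fold, 0.294 to 0.516). Nr4a2 stood at 0.424-fold (0.213 to 0.809). Its call held in 7 of 10 alternatives, with a log2 ratio of -0.81 where it was smallest, and within the one cluster of this class with enough cells it stood at -0.96, short of the limit. The call for Nr4a1 was lost with each cell thinned to 1000 UMIs (-0.85). Crtc2 had 8 UMIs in the Cre and 26 UMIs in the control library (0.270-fold, 0.105 to 0.613), the one call of a coactivator in a whole class. Like Nr4a2 (15 UMIs in the Cre and 31 UMIs in the control library), Crtc2 passed the minimum only through the control library. The dissociation genes summed to 18204 CPM in Cre and 29268 CPM in control venous-like cells, with 5 of 20 called lower. Of the other CREB-induced genes 17 were measured in this class, 1 called higher and 5 lower. The 8 alveolar macrophage markers summed to 1242 CPM in Cre and 14.0 CPM in control venous-like cells (1 measured and called higher), and the 6 neutrophil markers to 457 CPM in Cre and 2358 CPM in control cells (4 measured, all 4 called lower). The part of these genes was not tested. In nonclassical monocyte-like cells, where 0.48% of measured genes were called higher and 0.972% lower, Crem had 17.1 CPM in the Cre and 36.7 CPM in the control library (0.424-fold, 0.263 to 0.662) and Nr4a2 30.3 CPM in the Cre and 60.2 CPM in the control library (0.457-fold, 0.321 to 0.640). Each of these calls held in 6 of 12 alternatives. Over them the log2 ratio of Crem ranged between -1.22 and -0.47 and that of Nr4a2 between -1.13 and -0.76. In this class the 6 neutrophil markers summed to 953 CPM in Cre and 3102 CPM in control cells (6 measured, 3 called lower) and the 6 NK markers to 98.2 CPM in Cre and 5.98 CPM in control cells (1 measured and called higher, with Ncr1 at 0 in both libraries and Klrb1c and Klra8 at 0 in the control library). The part of these genes was not tested.

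In the remaining classes no member was called. Among endothelial and mesenchymal cells, 7 of 10 were measured in general capillary-like cells (1.42% of all measured genes called higher, 1.77% lower), 5 in aerocyte-like cells (2.5% higher, 2.22% lower), 5 in arterial-like cells (2.39% higher, 2.19% lower), 8 in smooth muscle-like cells (4.59% higher, 4.21% lower) and 8 in mesothelial-like cells (0.567% higher, 0.52% lower). Among myeloid cells, 8 of 10 were measured in alveolar macrophage-like cells (1.14% of all measured genes called higher, 0.702% lower), 6 in classical monocyte-like cells (1.51% higher, 1.1% lower), 7 in dendritic-like cells (3.11% higher, 2.29% lower), 3 in plasmacytoid dendritic-like cells (3.54% higher, 4.49% lower) and 7 in neutrophil-like cells (0.763% higher, 0.969% lower). Among lymphocytes, 8 of 10 were measured in T cell-like cells (0.58% of all measured genes called higher, 0.39% lower), 8 in ILC2-like cells (3.4% higher, 1.63% lower), 7 in NK-like cells (2.39% higher, 1.01% lower) and 8 in B cell-like cells (0.329% higher, 0.126% lower). Nearest to a call were Crtc2 in smooth muscle-like cells, with 24 UMIs in the Cre and 7 UMIs in the control library (2.32-fold, 0.971 to 6.38), and Nr4a3 in B cell-like cells, with 18.7 CPM in the Cre and 5.75 CPM in the control library (2.89-fold, 1.88 to 4.49). On the scale with 5 CPM added both stayed within 2-fold. The other CREB-induced genes ran in both directions in these classes. In general capillary-like cells 0 of 17 measured were called higher and 6 lower, and in plasmacytoid dendritic-like cells 3 of 16 higher and 1 lower.

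**Figure D4:**
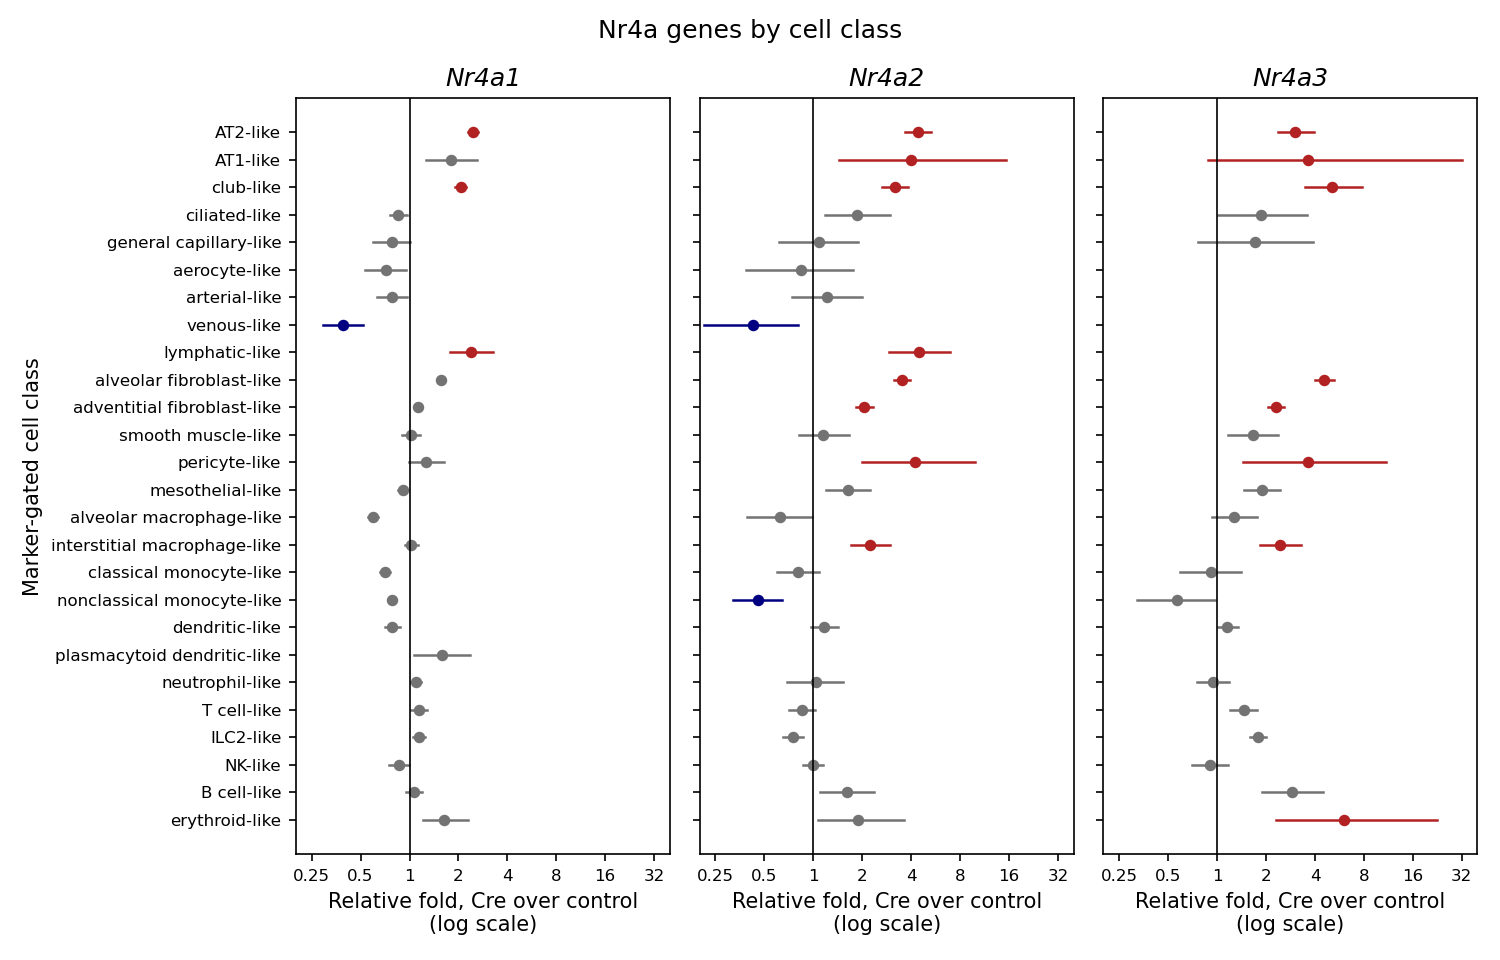
Relative fold of Cre over control (x axis, log scale) of Nr4a1, Nr4a2 and Nr4a3 (panels) in the classes with at least 20 UMIs (rows), with exact 95% intervals for counting error. Red marks classes called higher and blue classes called lower: 8 red classes for Nr4a2, 8 for Nr4a3 and 3 for Nr4a1, with venous-like cells in blue for Nr4a1 and Nr4a2 and nonclassical monocyte-like cells for Nr4a2.

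Over the 52 sums of 26 classes in the 2 libraries, which share libraries and depth, the genes most like each member in level were found among 12226 genes by Pearson correlation of log2(CPM + 5). Nr4a2 and Nr4a3 were each other's closest (r = 0.76). Nr4a1 was closest to Ifrd1 (0.77), Nfil3 (0.75) and Btg2 (0.75), Ppargc1a to Tspan1 (0.84), Rasef (0.82) and Gpx2 (0.82), and Crem to Isy1 (0.85), Vps37b (0.83) and Nlrc3 (0.82). Pde10a was closest to Slc10a6 (0.71), Adamts15 (0.71) and Serpine2 (0.70), and Pde4d to Znrf3 (0.66), Stmn1 (0.61) and Spc24 (0.60). The coactivators were closest to other genes again, Crtc1 to Rab33b (0.76), Scap (0.75) and Gnas (0.75), Crtc2 to Hnrnph2 (0.82), Nfya (0.81) and Usf2 (0.81), and Crtc3 to Map4k4 (0.80), Sf3b1 (0.79) and Sdf4 (0.79). Between members the highest value after Nr4a2 with Nr4a3 was Nr4a2 with Pde10a (0.63), then Nr4a1 with Nr4a3 (0.61).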

How the data were processed

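The deposited values are raw UMI counts for each gene in each barcode, whole numbers that the authors had not scaled. The submitters' processing notes list Cell Ranger 3.1.0, STAR and mm10, while software version 3.0.0 stands in the matrix header. Neither annotation, barcode filter nor strand setting is given in the labels. Every barcode had 500 or more UMIs.

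A minimum of 200 genes and a maximum of 20% mitochondrial UMIs per cell removed 1710 Cre and 724 control barcodes. Scrublet in scanpy 1.11.5 (expected rate 0.06) then removed 436 Cre and 408 control doublets. Free RNA was not subtracted. The summed levels of 1 marker set are not reported here. Each cell was assigned by its mean marker score over 35 marker sets of 33 classes, with a score of at least 0.5 and a lead of 0.25 over the next class. Both libraries together gave 34 Leiden clusters (leidenalg 0.10.2, resolution 1.0). Among cells given a class both by marker score and by cluster, the class was the same for 88.6%. That share was 0% in classical monocyte-like and pericyte-like cells and 50.0% in arterial-like cells. It was 63.0% in dendritic-like, 63.4% in adventitial fibroblast-like and 68.1% in venous-like cells. Intervals of ratios are exact conditional Poisson intervals (scipy 1.17.1), and shares have Clopper-Pearson intervals. All cover counting error only. The calculation was tested on simulated data.

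The members and gene lists were chosen with earlier results of these data known. All members are named. Of each other list, up to 6 genes with the largest log2 ratio in AT2-like cells and at least 50 UMIs there could be named, with Stk11, Sik1, Sik2 and Sik3. Likeness used genes with at least 200 UMIs. Areg in club-like cells was named after its values were seen. The values from 12 alternatives are in the closing section.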

Additional observations from a re-analysis of the deposited data

Results flagged for a closer look

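Of the members called in both directions, 3 differed in sign between cell classes. The difference between classes was not tested, since each genotype had 1 library. Crem had a relative log2 ratio of 1.09 in lymphatic-like cells and -1.05 in nonclassical monocyte-like cells. Nr4a1 stood at 1.24 in AT2-like cells and -1.32 in venous-like cells. Nr4a2 stood at 2.06 in lymphatic-like cells and -1.10 in venous-like cells.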

How the results depend on the processing

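Over 12 alternatives, 305 of 347 values of the 31 calls of a member in a class stayed past 2-fold and none changed direction. The count of 6 members called higher in AT2-like cells ranged between 4 and 6 over the alternatives. In AT1-like cells the count of 2 became 0 with a pseudocount of 20 CPM, 0 with at least 100 UMIs and 0 with each cell thinned to 1000 UMIs. With at least 100 UMIs and with thinning, 1 member was still measured there. Thinning to 1000 UMIs gave 2 in club-like cells, where 2 members were measured, and 0 in ciliated-like cells, where 1 was. Fewer members measured is part of how these settings are built, and for the pseudocount the cause was not tested. Leaving out barcodes found in both libraries, and values within clusters, were chosen after seeing the data. Clusters gave no value for pericyte-like cells. No paired analysis was possible because each genotype had 1 library, so none could be left out either.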
